A study of Mus musculus with 120 samples.

Results

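Activated ILC2 fell into cells with abundant Il9 transcript and cells with little of it, and the other genes of these cells were compared here. Of 120 single-cell libraries, 22 came from activated cells, and the sets were chosen by their Il9 level, the count of Il9 reads per 1000000 gene reads (CPM). With a limit of 1000 CPM, 9 cells were Il9-high and 13 were Il9-low. No other value chose the sets, so Il9 is described and not tested, and it was left out of the totals when other genes were compared.

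Group 2 innate lymphoid cells (ILC2) are tissue-resident lymphocytes that answer alarmins such as IL-33 with type 2 cytokines. The ILC2 came from the pooled mesentery of 20 wildtype C57BL/6 mice (the labels name fat tissue), were sorted by c-Kit and Sca-1 without lineage markers, and were kept in culture before use. Cells were imaged for secretion of IL-5 or of IL-13, here called the index, and picked singly. Activated cells of both indexes, 11 each, had been incubated with IL-2 and IL-33 and were secreting the imaged cytokine when recovered. The sets therefore share strain, stimulus and state. Silent cells had the same stimulus without detected secretion, and transition cells were picked 30, 60 or 90 min after the onset of secretion. Pre-stimulation cells were recovered before the stimulus was added, and the culture medium had already held IL-2. The titles hold 2 dates per index, and their meaning is not given. Libraries were pooled 5 or 6 at a time before tagmentation, and each index and date was taken as a pool, so there were 4 pools of activated cells. Since the labels tie no cell to an animal or a culture, each set counts as 1 sample. No test was possible. Ratios carry 95% intervals that cover counting error only, as the reads have no molecular identifiers.

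IL-9 is a secreted cytokine that promotes mast cell growth, mucus production and the survival of ILC2 themselves. In helper T cells its gene is known to be controlled by STAT factors downstream of IL-2, IL-4 and other cytokines, together with IRF4, BATF, GATA3 and PU.1. How far the same factors act in ILC2 is less clear, so genes for these factors were among the lists compared.

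The gene for Il9 (ENSMUSG00000021538) lies on chromosome 13, 56479277 to 56482246, on the minus strand of GRCm38. Its nearest neighbour with reads in these cells was Fbxl21 (ENSMUSG00000035509, 56522472 to 56537898, plus strand), an F-box protein gene, 40.2 kb away. It has the largest ratio among the genes named by a rule below, so the 250 bases before both start sites are shown, from RefSeq (GRCm38.p6), at chr13:56482258-56482507 (minus strand) and chr13:56522222-56522471 (plus strand). Capitals mark letters of the AP-1 motif TGANTCA and the NFAT motif GGAAAA on either strand.
Il9: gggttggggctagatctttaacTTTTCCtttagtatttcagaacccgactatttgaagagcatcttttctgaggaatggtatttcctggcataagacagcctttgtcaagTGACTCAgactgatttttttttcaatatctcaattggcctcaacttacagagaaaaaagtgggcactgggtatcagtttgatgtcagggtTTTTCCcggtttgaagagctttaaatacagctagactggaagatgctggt
Fbxl21: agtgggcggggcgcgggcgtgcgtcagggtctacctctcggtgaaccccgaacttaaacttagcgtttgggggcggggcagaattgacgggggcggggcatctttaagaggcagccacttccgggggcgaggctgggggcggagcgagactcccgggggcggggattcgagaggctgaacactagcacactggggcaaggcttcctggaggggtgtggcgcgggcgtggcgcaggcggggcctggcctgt
The Il9 window held the AP-1 letters once and the NFAT letters at 2 places, and held none of the STAT motif TTCNNNGAA, of AGATAA, the motif of GATA factors, or of a motif of the interferon regulatory factor type (IRF-type). The Fbxl21 window held none of the 5. Of 32851 promoter windows of this length, 6.75% hold the AP-1, 20.4% the NFAT, 7.02% the STAT, 9.99% the GATA and 2.98% the IRF-type letters. These are matches of letters and say nothing of binding.

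Levels of Il9 ran from 1538 to 229067 CPM (median 124247) in the Il9-high set and from 24.4 to 580.0 CPM (median 135) in the Il9-low set. At the median, Il9 alone took 12.4% of the gene reads of an Il9-high cell, and at most 22.9%. Replicate 7 of the IL-13 index lay just inside the limit at 1538 CPM, and the next Il9-high cell was at 11046 CPM. The highest Il9-low cells were at 580.0 and 475 CPM. Both sets were found in every pool. In the IL-13 index, 1 of 5 cells of the first date and 3 of 6 of the second were Il9-high. In the IL-5 index, 2 of 5 and 3 of 6 were. Each pool held Il9-high cells, and Il9-low cells had 0.0252% to 2.50% of the level of the highest cell of their pool. Replicate 7 of the IL-13 index was at 0.995% of the highest cell of its pool, within that range. Whether low Il9 counts came from the cell itself or from pool mates cannot be told apart.

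**Figure D1:**
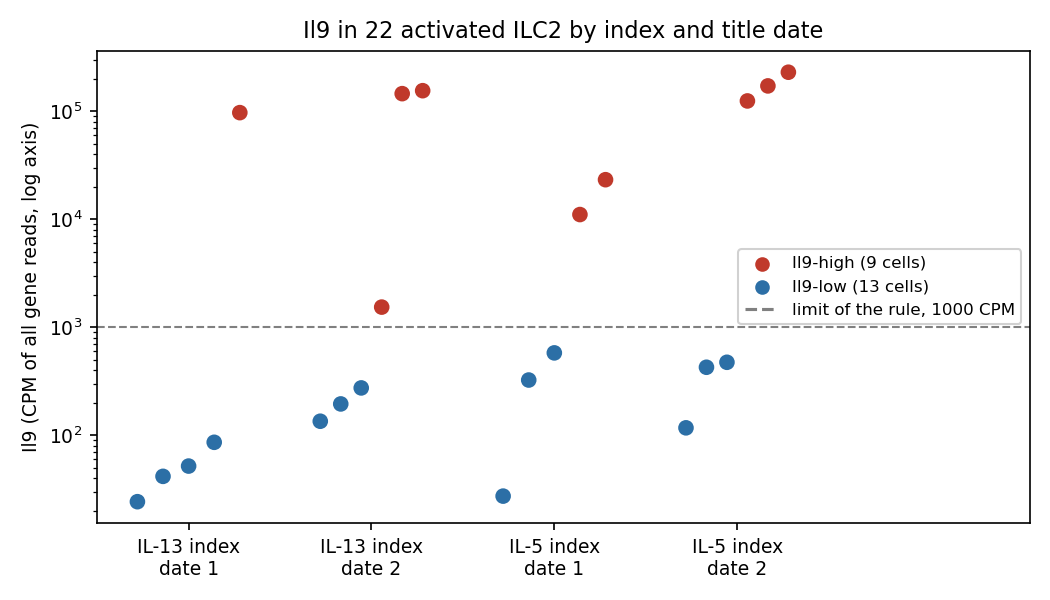
Il9 level (CPM of all gene reads, log axis) of each activated cell, placed by index and title date, where the dashed line is the limit of 1000 CPM. Each of the 4 pools holds Il9-high (9 in all) and Il9-low cells (13 in all), and 1 Il9-high cell lies near the limit at 1538 CPM.

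Depth without Il9 was alike, with 197263 to 408978 gene reads in Il9-high cells and 207189 to 399734 in Il9-low cells. With Il9 the ranges were 218419 to 465179 and 207246 to 399966. After each cell was thinned to 100000 gene reads without Il9, Il9-high cells showed 2575 to 3525 genes (median 3030) and Il9-low cells 1509 to 3280 (median 2912). The share of alignments that fell in genes was 63.8% to 72.3% (median 68.1%) in Il9-high and 54.9% to 68.9% (median 64.4%) in Il9-low cells, and mitochondrial transcripts took 1.06% to 1.71% and 0.815% to 3.81%. Il9-low cells with fewer genes than every Il9-high cell were replicates 9 (1509) and 10 (2036) of the IL-13 index and replicate 11 (2306) of the IL-5 index. These library measures moved with the sets, and their part in the results was not tested. Values without those 3 cells are given for some genes only, and genes without such a value may move too.

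Of the 14 ILC2 marker genes, 1 had no read in any of the 22 cells, and the summed level of the list was 4173 to 14290 CPM in Il9-high cells. Markers that define other types were nearly absent, with no read for 10 of 12 T cell, 10 of 11 mast cell and basophil, 8 of 9 myeloid, 5 of 6 B cell, 6 of 6 NK and ILC1 and 3 of 4 ILC3 genes. The summed ILC2 level was 2598 to 12959 CPM in Il9-low cells, so the sets overlapped. The members of the other lists with most reads were Trbc2, a T cell receptor constant gene, at 256 CPM in Il9-high and 478 CPM in Il9-low cells, Trbc1 (0.72 and 91.3 CPM), Fcer1a (132 and 174 CPM) and Il22 (396 and 0.26 CPM). Fcer1a, part of the IgE receptor of mast cells and basophils, was read in 2 Il9-high cells and 1 Il9-low cell, with 121 against 0 CPM in the IL-13 index. In the IL-5 index transition cells used further down, it had 577 reads in Il9-high cells (median 0, up to 2160 CPM) against 4 in Il9-low cells. The Il22 reads, 1097 against 1, came from 2 cells of the Il9-high set, with 99.8% in replicate 11 of the IL-13 index. The part of such reads in the results was not tested.

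The comparison of the sets covered 2486 genes with a mean of at least 50 CPM. Among them 257 (10.3%) were at least 2-fold higher in the Il9-high set and 345 (13.9%) at least 2-fold lower, by counts summed over the cells of a set. The median log2 ratio of the 2486 genes was 0.04, with quartiles of -0.51 and 0.51, and 1301 genes (52.3%) lay above 0. Of the 2486 genes, 69 (2.78%) were among the 257 and 106 (4.26%) among the 345 and also kept their direction in both indexes, in all 4 pools, by the mean of the cells and without any 1 cell. In 0 genes (0.0%) was every Il9-high cell above every Il9-low cell, and in 0 (0.0%) was every one below. Without the 3 cells named above, 236 and 277 genes passed 2-fold. The balance of higher and lower genes also depended on the scale. With Il9 kept in the totals, 31.1% of the genes past 2-fold were higher, and by the difference of mean log2(CPM + 1) 73.0% were, against 42.7% here. The last scale weighs detection in more cells, and the median log2 ratio of all genes on it was 0.51.

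Fbxl21, which encodes a substrate receptor of a ubiquitin ligase known from the circadian clock, had the largest ratio among the genes named by a fixed rule of size, detection and direction. It had reads in 9 of 9 Il9-high cells and in 3 of 13 Il9-low cells. Of the former, replicate 3 of the IL-13 index had only 3 reads, equal to the floor, and its Il9-low pool mate replicate 1 had 11. Whether such low counts came from pool mates cannot be told apart. Levels of Fbxl21 were 15.2 to 460 CPM with a median of 54.2 in Il9-high cells, and 0 to 61.0 CPM with a median of 0 in Il9-low cells. In the IL-5 index, the Il9-high cells held 37.5, 43.3, 54.2, 107 and 460 CPM, and the Il9-low cells with reads held 9.53 and 61.0 CPM. In the IL-13 index, the Il9-high cells held 15.2, 42.8, 115 and 143 CPM, and the Il9-low cell with reads held 44.7 CPM. The sets overlapped at the low end, and the Il9-high cell was the higher one in 92.3% of 117 pairs of cells. The summed ratio was 3.81 on the log2 scale (counting interval 3.30 to 4.37, 349 reads against 34), and 3.77 and 3.89 within the IL-5 and IL-13 index. By pool it was 0.52 and 4.70 on the first and second date of the IL-13 index, and 1.34 and 6.10 on those of the IL-5 index, with the Il9-low reads of each second date at the floor of 3. The difference was thus smaller on the first date of both indexes. Leaving out any 1 cell gave 3.09 to 4.96.

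The levels of Fbxl21 and Il9 did not run in proportion within the Il9-high cells. The cell with the most Il9 (229067 CPM) also had the most Fbxl21 (460 CPM), but the IL-13 index cell with 1538 CPM of Il9 held 115 CPM of Fbxl21, and the one with 96860 CPM held 15.2 CPM. Of 15 annotated genes within 300.0 kb of Il9, 12 had no read in the activated cells, among them Slc25a48 (5.04 kb away) and Lect2 (60.2 kb), on either side of Il9. The others with reads were Smad5, a signalling factor of the BMP pathway (90 reads in 4 cells against 48 in 4), and Tgfbi, with 33 reads in 1 Il9-high cell. These neighbours, and Fbxl21 in cells of other states, were looked at after the ratio of Fbxl21 had been seen.

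The cells of other states did not enter the split, and Fbxl21 was read in them too. Of 82 transition and silent cells with at least 84667 gene reads, 9 held 1000 CPM of Il9 or more, 8 of them transition cells of the IL-5 index. All 9 had Fbxl21 reads, at 99.0 to 1360 CPM. Over all stimulated cells, that made 18 of 18 Il9-high cells and 23 of 86 Il9-low cells with Fbxl21 reads, and these include the activated cells in which Fbxl21 was picked out. Silent cells had reads in 1 of 21 cells and pre-stimulation cells in 0 of 10, where 3 reads would be 1.38 CPM over the latter. Transition cells under the Il9 limit had reads in 19 of 52. Among the transition cells of the IL-13 index, 26 held no Il9 read, and 9 of these held Fbxl21 at 34.3 to 558 CPM. Fbxl21 reads were thus seen without Il9 in cells soon after onset. Il9 at 1000 CPM or more was not seen without Fbxl21 reads, though 1 of those cells held only 3 of them.

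**Figure D2:**
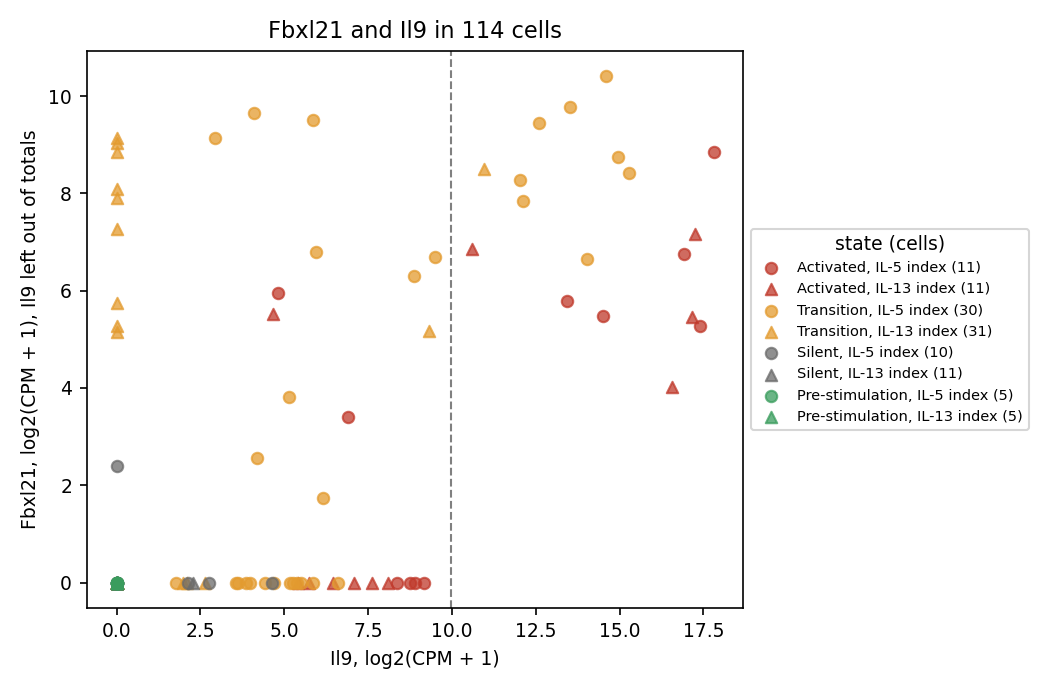
Fbxl21 against Il9 in the 114 cells with enough depth, both as log2(CPM + 1), by state (colour) and index (shape), with the Il9 limit as a dashed line. All 18 cells right of the line have Fbxl21 reads, while left of it most cells lie at 0 and a group of IL-13 index transition cells has Fbxl21 with no Il9.

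Besides Fbxl21, 11 genes higher in the Il9-high set were named by the rule. Gadd45g, a stress-induced growth arrest gene, was at 0 to 3294 CPM (median 230) in Il9-high and 0 to 295 CPM (median 3.04) in Il9-low cells. Its ratio of 3.02 fell to 1.42 without replicate 7 of the IL-5 index, which held the highest value. Etf1, the release factor that ends translation, was read in 9 of 9 Il9-high cells at 11.5 to 347 CPM (median 217) and in 5 of 13 Il9-low cells at up to 183 CPM. It had a log2 ratio of 2.29 (2.03 to 2.55), and the Il9-high cell was the higher one in 94.0% of pairs, more than for any other of the 24 named genes.

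The remaining higher genes were read in 7 or 8 of the 9 Il9-high cells each. Cnot11, a subunit of the CCR4-NOT deadenylase, had a log2 ratio of 3.05 and reads in 1 of 13 Il9-low cells. Ddt, a relative of the cytokine MIF, had a ratio of 3.03, Las1l, which acts in ribosome assembly, 2.29, and March5, a ubiquitin ligase of mitochondria, 2.17. Mtln, which encodes a mitochondrial micropeptide, reached 326 CPM at the median in Il9-high cells against 44.5 CPM, a ratio of 2.08. Tex30, Med30 (a Mediator subunit) and Pycrl (proline synthesis) had ratios of 2.30, 2.13 and 2.09. Med30 ran from 0.25 to 6.65 by pool and was at 3.68 without replicate 8 of the IL-5 index, which held 68.7% of its Il9-low reads. Las1l ran from 1.66 to 3.45 on leaving out any 1 cell.

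Among the 12 genes named as lower, Htatsf1, a splicing and elongation cofactor, was the most abundant. It was read in 13 of 13 Il9-low cells at 101 to 3185 CPM (median 1373) and in 8 of 9 Il9-high cells at up to 809 CPM (median 337). The log2 ratio was -2.41 (-2.51 to -2.30), and the Il9-high cell was the higher one in 12.8% of pairs, as it was for Pgd (-2.08), the pentose phosphate pathway dehydrogenase. Tcof1, a nucleolar factor of ribosomal RNA synthesis, had reads in 10 of 13 Il9-low and 2 of 9 Il9-high cells, with a ratio of -3.15. Replicate 7 of the IL-5 index held 98.6% of its Il9-high reads. Galnt1, which starts mucin-type O-glycosylation, was at 0 to 267 CPM (median 30.7) in Il9-high and 0 to 1501 CPM (median 437) in Il9-low cells, a ratio of -2.74. Cyp11a1, the enzyme of the first step of steroid synthesis, was at a median of 45.9 against 310 CPM (-2.61), and Dbi, an acyl-CoA binding protein, at 9.99 against 274 CPM (-2.61). The others were Crem (-2.60), Aplp2 (-2.35), Rel (-2.34), Samsn1 (-2.33), an adaptor that dampens lymphocyte signalling, Ube2d2a (-2.19) and Fam129a (-2.13). Crem was at -4.21 without replicate 4 of the IL-5 index. All 24 named genes stayed at least 2-fold apart in the same direction without the 3 Il9-low cells with fewest genes. Cnot11, Ddt and Aplp2 had means under 50 CPM over both sets and were not among the 2486. The directions were part of the rule that named them and are no sign of stability.

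**Figure D3:**
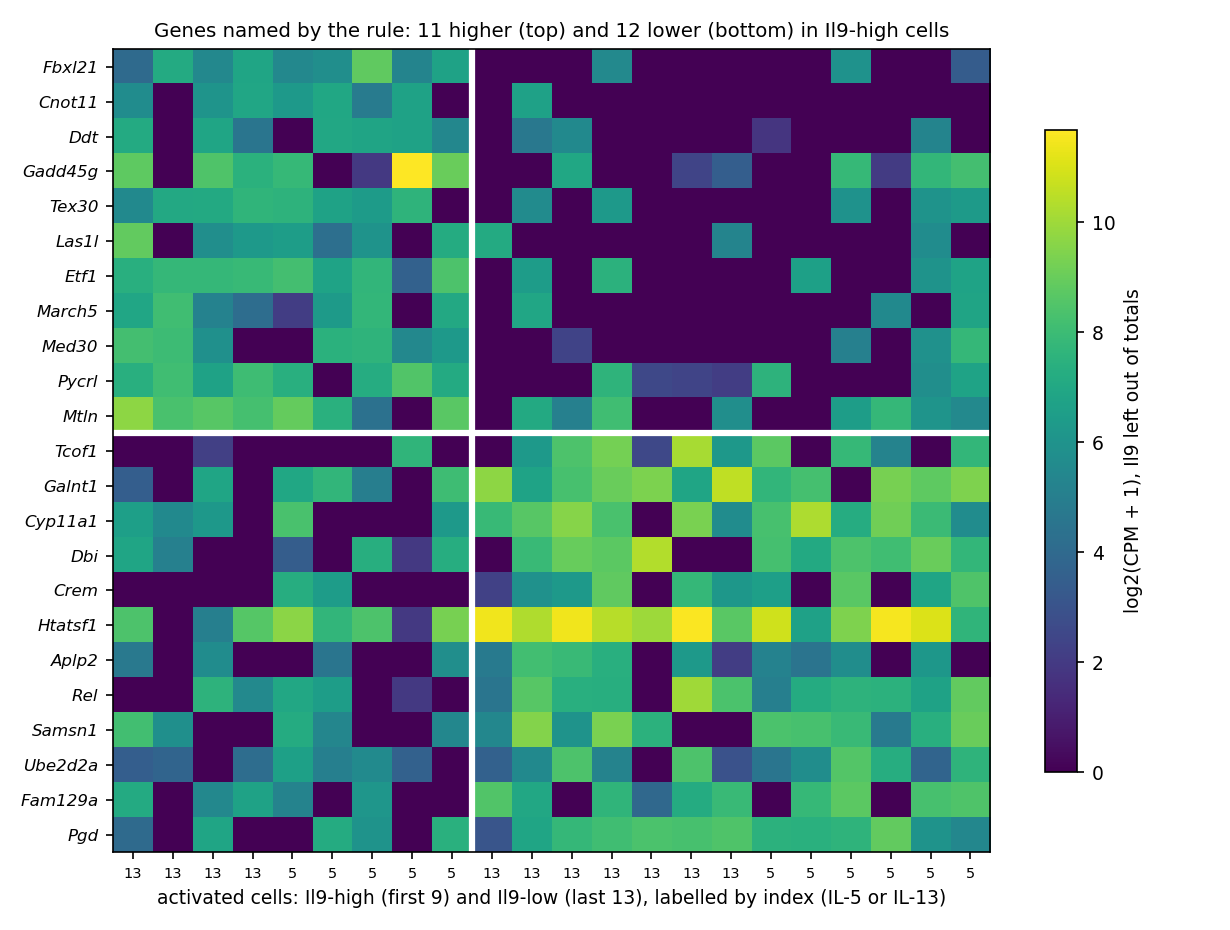
Levels of 11 higher and 12 lower named genes as log2(CPM + 1), Il9 left out of totals, in each of the 22 activated cells (columns, labelled by index), with Il9-high cells left and Il9-low cells right of the white line. Most higher genes have no read in most of the 13 Il9-low cells. Among the lower genes, Htatsf1 is read in nearly all cells and the others in fewer, and in no row are the sets fully apart.

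At least 1 RefSeq promoter window was found for 7 of the 12 higher and 7 of the 12 lower genes. Among the higher genes the GATA letters stood in that of Mtln and the NFAT letters in that of Ddt. Among the lower genes the NFAT letters stood in a window of Dbi and in that of Samsn1. No window of these genes held the AP-1, STAT or IRF-type letters.

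Of 50 genes of the lists and markers that were past 2-fold, 25 stayed so without any 1 cell. For 2 of the others, Il22 and Cxcl1, leaving out 1 cell left both sets at or under the floor of 3 reads, and the values of the other 23 without the cell that mattered most are given beside them. Of 41 genes known as regulators of Il9, 17 passed the CPM minimum. Among these 2 were at least 2-fold higher and 7 at least 2-fold lower, beside 10.3% and 13.9% of all genes, with a median log2 ratio of -0.67 against 0.04 over all genes. The median was -0.02 in the IL-5 index and -1.44 in the IL-13 index. Stat3, the transcription factor downstream of IL-6 family cytokines and IL-21, was read in 7 of 9 Il9-high cells (median 89.4 CPM) and in 7 of 13 Il9-low cells (median 3.12), a ratio of 1.69 (1.39 to 1.99). Batf, an AP-1 family factor, was at 843 to 2291 CPM (median 1599) in Il9-high cells and 0 to 2554 CPM (median 587) in Il9-low cells, a ratio of 0.84 (0.77 to 0.90). It was the higher one in 83.8% of pairs, short of 2-fold. Irf4, at a ratio of 0.49, had 0.67 in the IL-5 and -0.10 in the IL-13 index. Id2, an inhibitor of E proteins that all innate lymphoid cells need, was the other gene past 2-fold (1.15), but the ratio was 1.94 in the IL-5 index and -1.70 in the IL-13 index, and 0.47 without replicate 7 of the IL-5 index.

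The lower regulators included lineage factors of ILC2. Rora was at 25.4 to 626 CPM (median 242) in Il9-high and 187 to 2164 CPM (median 725) in Il9-low cells, with a ratio of -1.56 (-1.68 to -1.45) and values of -1.66 and -1.44 within the indexes. Gata3, the master factor of type 2 cells, was at a median of 222 against 518 CPM and a ratio of -0.91 (-1.02 to -0.79), short of 2-fold. Stat5a, downstream of IL-2, had a ratio of -1.52, with -0.70 and -3.16 in the IL-5 and IL-13 index. Ets1 (-2.94), Rela (-1.67), Notch1 (-1.38), Rbpj (-1.33) and Stat6 (-1.23) were the other lower ones, of which Ets1 and Notch1 had reads in 2 of 9 Il9-high cells each. Rela was at -0.84 without replicate 1 of the IL-5 index, Notch1 at -0.29 without replicate 9 of the IL-13 index, and Stat6 at -0.92 without replicate 5 of the IL-13 index. Of 11 tested ILC2 markers, 1 was higher (Thy1, 1.35, and 0.85 without replicate 7 of the IL-13 index) and 4 lower, Rora among them, beside 10.3% and 13.9% of all genes. The ILC2 markers Kit (-1.40) and Ptprc (-1.33) were lower too, and Il7r (-5.09) had reads in 2 of 9 Il9-high and 5 of 13 Il9-low cells. Il7r was at 1534 CPM in replicate 10 of the IL-13 index and 725 CPM in replicate 11 of the IL-5 index. Ptprc was at 323 and 248 CPM in replicates 9 and 10 of the IL-13 index, and its ratio was -1.08 without the former. These are the 3 Il9-low cells with fewest genes, and both ratios rested on them in part.

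Genes of the NF-kB pathway, which IL-33 engages, showed 1 higher and 5 lower of 14, beside 10.3% and 13.9% of all genes, with a median of -0.68. Rel, the subunit c-Rel, was read in 12 of 13 Il9-low cells at a median of 167 CPM and in 5 of 9 Il9-high cells at a median of 2.88 CPM. Its ratio was -2.34 (-2.61 to -2.07), with -2.19 in the IL-5 and -2.44 in the IL-13 index. By pool it was -3.66 and -2.80 on the first and second date of the IL-13 index, and -0.05 and -6.34 on those of the IL-5 index. The sets thus hardly differed in Rel on the first date of the IL-5 index. Cd83 (3.99-fold lower, with 70.6% of its Il9-high reads in replicate 7 of the IL-13 index), Ikbkb (a log2 ratio of -1.99) and Map3k8 (-1.51) were read in 4, 2 and 3 of 9 Il9-high cells against 8, 10 and 8 of 13 Il9-low cells. Rela was the other lower one (-1.67, and -0.84 without replicate 1 of the IL-5 index). Members within 2-fold included Nfkbia at -0.44, Nfkb1 at -0.67 and Nfkb2 at -0.73. Tnip1, the higher one (1.25), rested on replicate 7 of the IL-13 index and was -0.23 without it.

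Of the STAT and SOCS list, 2 of 14 were higher, Stat3 and Jak1, and 3 were lower, Stat5a, Stat6 (-0.92 without replicate 5 of the IL-13 index) and Bcl2 (-1.62, and -0.65 without replicate 11 of the IL-5 index), beside 10.3% and 13.9% of all genes. The median was 0.44, with 0.69 in the IL-5 and -0.98 in the IL-13 index. Jak1, a kinase of the shared cytokine receptors, was at 64.9 to 628 CPM (median 470) in Il9-high and 0 to 537 CPM (median 71.1) in Il9-low cells, a ratio of 1.25 (1.11 to 1.39). The high-affinity IL-2 receptor chain Il2ra was at 161 to 5166 CPM (median 2976) against 145 to 3385 CPM (median 1371), a ratio of 0.95 (0.90 to 1.00). The shared chains Il2rb and Il2rg were at -0.65 and -0.21. Of 10 cytokine receptors tested, 0 were higher and 2 lower, Il7r and Il10ra, the latter with 1 read in the Il9-high set and 385 in the Il9-low set.

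**Figure D4:**
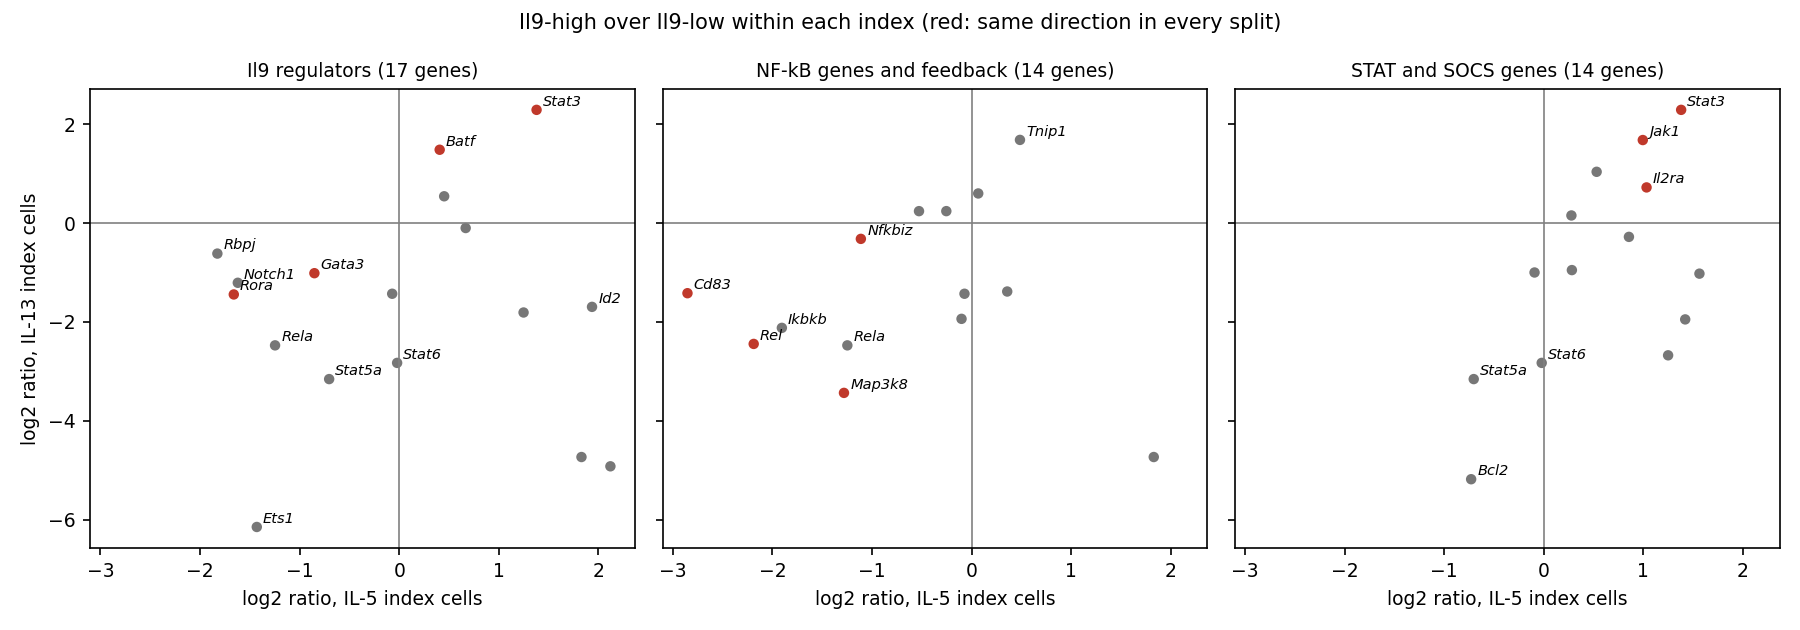
Log2 ratio of summed CPM, Il9-high over Il9-low, within the IL-5 index (horizontal) and the IL-13 index (vertical) for the tested genes of 3 lists, with red for genes of the same direction in both indexes, all 4 pools, by the mean of cells and without any 1 cell. Stat3, Jak1, Il2ra and Batf lie high in both indexes and Rora, Rel, Cd83 and Map3k8 low in both, while Id2 lies on opposite sides (1.94 and -1.70).

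The genes of a list of ILC2 and type 2 helper T cell cytokines, which also held Tnf and Il22, were not all higher beside Il9. Of 9 tested, 4 were higher and 2 lower, beside 10.3% and 13.9% of all genes, with a median of 0.43, which was -0.07 in the IL-5 index and 0.53 in the IL-13 index. Il13 was at 340 to 2372 CPM (median 912) in Il9-high and 6.09 to 4186 CPM (median 718) in Il9-low cells, a ratio of -0.15. Il5 had a median of 1346 against 748 CPM and a ratio of 1.00, but most of the Il9-high reads (59.3%) lay in replicate 7 of the IL-5 index, and the ratio was -0.10 without that cell. Il4 was at a median of 131 against 16.2 CPM, a ratio of 1.00 (0.81 to 1.19), with 0.31 in the IL-5 and 2.77 in the IL-13 index, and 0.69 without replicate 7 of the IL-5 index. Tnf (2.10) had reads in 3 of 9 and 2 of 13 cells, and was -0.10 in the IL-5 index. Il22 was the other one past 2-fold, and rested on replicate 11 of the IL-13 index, without which both sets were at the floor.

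Of 4 chemokines tested, 3 were lower and 0 higher, beside 13.9% and 10.3% of all genes. Ccl1, a chemokine of type 2 responses, was at 11.4 to 3963 CPM (median 207) in Il9-high and 9.36 to 34766 CPM (median 5346) in Il9-low cells, a ratio of -3.28 (-3.35 to -3.22), with -1.94 and -4.25 in the indexes. Csf2 had a median of 487 against 4590 CPM and a ratio of -0.72. Calca, which encodes the neuropeptide CGRP, had a median of 922 against 5268 CPM and a ratio of -1.18, but 0.22 in the IL-13 index and -0.73 without replicate 11 of the IL-5 index. Il6 (-1.32) had medians of 357 and 368 CPM that lay close together, with up to 18808 CPM in an Il9-low cell, and was at -0.78 without replicate 6 of the IL-13 index. The other lower chemokines, Cxcl1 and Cxcl2, were read in 2 and 3 of 13 Il9-low cells, and replicate 4 of the IL-13 index held 99.8% of the Cxcl1 reads, without which no ratio could be had.

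The counts of other early and effector genes stand beside 10.3% higher and 13.9% lower of all genes. Of 10 AP-1 and immediate early genes, 2 were higher (Gadd45g and Fosl1, the latter 2.07, and 0.82 without replicate 4 of the IL-5 index) and 2 lower (Crem and Rrad), where Rrad was read in 1 and 3 cells and was at 1.97 without replicate 2 of the IL-13 index, and Gadd45b, at medians of 1390 and 1343 CPM, had a ratio of -0.22. Of 9 costimulatory and checkpoint genes 1 was higher (Tnfrsf4, 2.32, with reads in 2 cells of each set, and 0.32 without replicate 4 of the IL-5 index), and Tnfrsf18 was at -0.07. Of 9 effector and granule genes 1 was higher (Tph1, serotonin synthesis, 1.03, and 0.61 without replicate 7 of the IL-13 index) and 2 lower (Ptgs2, and Ctsd at -1.04, and -0.79 without replicate 10 of the IL-13 index). Of 4 quiescence genes 0 were higher and 2 lower, Itgb7 (-1.31, and -0.63 without replicate 5 of the IL-13 index) and Zfp36l2, which was at -3.45 and at 0.46 without replicate 10 of the IL-13 index. The interferon response list had 3 tested genes and the antigen presentation list 8, with 0 past 2-fold in either.

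Of 32 tested secretory pathway and unfolded protein response genes, 0 were higher and 5 lower, a share near the 13.9% of all genes, with a median of -0.22. Hsp90b1, an endoplasmic reticulum chaperone, was at 76.4 to 1057 CPM (median 418) in Il9-high and 189 to 1995 CPM (median 1074) in Il9-low cells, a ratio of -1.14 (-1.23 to -1.04). Calr (-1.07), Ssr1 (-1.14), Ssr3 (-1.05) and Sdf2l1 (-2.38) were the other lower ones, Calr at -0.68 without the 3 Il9-low cells with fewest genes, and Hspa5, the chaperone BiP, was at -0.64. Without 1 cell, Hsp90b1 came to -0.95, Calr to -0.92, Ssr1 to -0.78 and Ssr3 to -0.57, where the cells were replicates 11 and 7 of the IL-13 index and 5 and 11 of the IL-5 index in that order. The 42 cytosolic ribosomal protein genes all lay within 2-fold, with a median of 0.11, as did 6 mitochondrial transcripts, with a median of -0.24.

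Of 10 glycolysis genes, 8 lay above 0, beside 52.3% of all genes, with a median of 0.52. Tpi1 was the 1 gene past 2-fold, beside 10.3% of all genes. Tpi1 was at 391 to 2221 CPM (median 792) in Il9-high and 0 to 939 CPM (median 278) in Il9-low cells, a ratio of 1.48 (1.39 to 1.57), and the Il9-high cell was the higher one in 85.5% of pairs. Ldha had a ratio of 0.83, Hk2 of 0.73 and Gapdh of 0.39. The median of the list was 0.99 in the IL-5 index and -0.01 in the IL-13 index. Of 12 cell cycle genes 0 were higher and 1 lower (Hmgb2), beside 10.3% and 13.9% of all genes, with Cdk4 at 0.93 and Npm1 at 0.58. Of 7 cholesterol and fatty acid synthesis genes, Sc5d was higher (1.84) and Sqle lower (-1.72), beside the same shares of all genes. The nuclear transcript Malat1 was at a median of 2144 against 3796 CPM, a ratio of -1.32, -0.56 without the 3 Il9-low cells with fewest genes and -0.83 without replicate 10 of the IL-13 index.

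**Figure D5:**
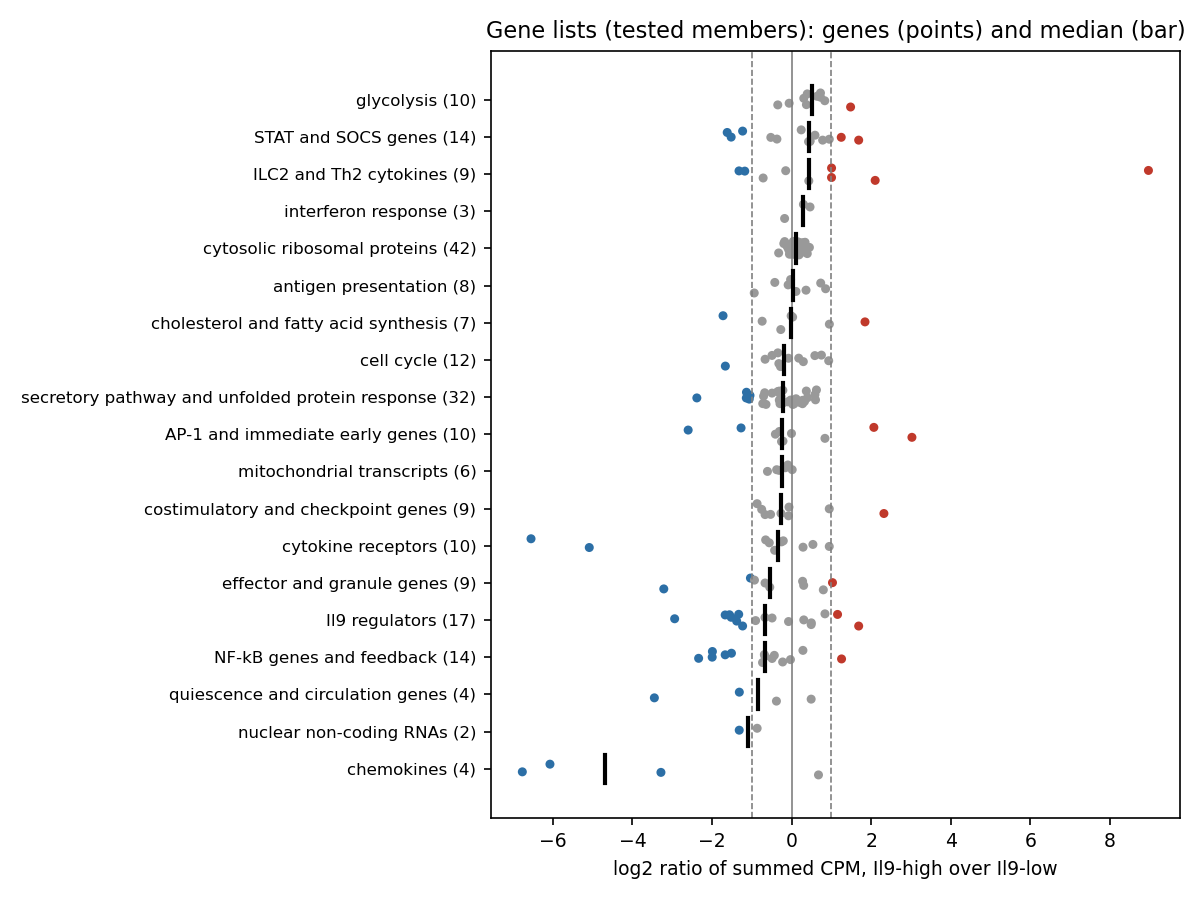
Log2 ratio of summed CPM, Il9-high over Il9-low, of each tested gene (points) in 19 lists, with the median of the list as a bar and dashed lines at 2-fold. Medians run from -4.68 for 4 chemokines to 0.52 for 10 glycolysis genes, and the 42 ribosomal protein genes lie close to 0.

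The same measure was then taken in cells that the split of activated cells did not use. In all 82 transition and silent cells with enough depth, 15 of the 24 named genes had the direction seen in activated cells, and the Il9-high cells were mostly of the IL-5 index. Within the IL-5 index, 8 of 30 transition cells had Il9 levels of 4194 to 39596 CPM and the other 22 had at most 728 CPM. There, 16 of the 24 had the same direction. The 8 were replicates 3 and 8 at 30 min, 1 and 9 at 60 min and 2, 6, 9 and 10 at 90 min. At 90 min the Il9-low cells were replicates 1, 3, 4, 5, 7 and 8. The Il9-high cells held 172386 to 203156 gene reads at 90 min and 314661 and 388046 at 30 min. Time and depth were not matched between these sets, and their part was not tested. Of the genes higher in activated Il9-high cells that were also abundant enough in these transition cells, 103 of 170 (60.6%) lay above 0, where 51.8% of all 2036 genes did. Of those lower, 125 of 231 (54.1%) lay below 0. Past 2-fold in these transition cells were 8.1% of genes upward and 9.87% downward. Fbxl21 (2.48), Gadd45g (2.28), Stat3 (2.27) and Las1l (1.39) were higher there too, Las1l with a median of 0 in both sets and 50.0% of pairs, and Rel (-1.09), Rora (-1.05), Gata3 (-1.10), Cd83 (-1.57) and Pgd (-3.27) lower. Among those of the opposite direction were Tex30 (-1.21), Il6 (3.47) and Hsp90b1 (1.04). Irf4 had 1 read in these Il9-high transition cells against 450 in the Il9-low ones.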

How the data were processed

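The files hold counts of reads per gene with no scaling. For these deposited counts, the authors aligned 3' reads of SMART-Seq v4 3' DE libraries to GRCm38 using TopHat, and HTSeq tallied them. The strand setting and annotation release are not given in the sources used here. Symbols were matched for 45143 of 46078 identifiers.

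Reads of a set's cells were added up without Il9 and without the 5 HTSeq summary entries, and scaled to 1000000. In log2 ratios, a set under 3 reads was put at 3 reads over the set. Intervals are exact (Clopper-Pearson) at 95%. Genes were called at 2-fold among those with a mean of 50 CPM. A gene passes that minimum through its higher set, so counts among called genes are descriptions. The members, lists and rules were chosen with earlier results of these data known. Named genes were those of the 19 lists and up to 12 per direction by ratio, with 50 CPM and reads in 70% of cells in the higher set and 1 direction by the mean of cells, in both indexes, in 4 pools and without any 1 cell. Of these, 1 is counted but not reported here.

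Alternatives covered scaling (TMM, DESeq2, Il9 kept in totals), filters, scales, the Il9 limit, indexes, pools and leaving out cells. Activated cells were compared for identical libraries, and the highest correlation between any 2 was 0.501. The measure was also run on simulated counts, whose values are not given here and are not used as support. Python 3.11.15, pandas 2.3.3 and scipy 1.17.1 made the tables, while edgeR 4.0.16 and DESeq2 1.42.0 gave only factors.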

Additional observations from a re-analysis of the deposited data

Results flagged for a closer look

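In the Il9-high set of 9 cells, which the data defined and which is not a study group, 29 measures were searched for a cell far from the others. The limit used would flag about 1 in 20 measures if their values were normally distributed. Most of the measures were gene levels that are skewed and hold zeros, so the rate to be met here is not known. Fbxl21 stood apart at 460 CPM in replicate 6 of the IL-5 index, next to 143 CPM, and Gadd45g at 3294 CPM in replicate 7 of the IL-5 index, next to 511 CPM. Las1l was at 471 CPM in replicate 3 of the IL-13 index, next to 145 CPM. Tcof1 was at 202 CPM in replicate 7 of the IL-5 index, next to 3.57 CPM. Cyp11a1 was at 316 CPM and Ube2d2a at 99.9 CPM in replicate 4 of the IL-5 index, next to 96.3 and 47.4 CPM. In cells outside the comparison, 9 transition cells of the IL-13 index held Fbxl21 reads and no Il9 read, while pre-stimulation cells held 0 Fbxl21 reads.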

How the results depend on the processing

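The counts of genes past 2-fold depended on the filter on low values. A minimum of 10 CPM gave 1101 higher and 1551 lower, 200 CPM gave 37 and 41, and no filter gave 2109 and 2929. With Il9 kept in the totals 166 were higher, with the difference of mean log2(CPM + 1) 861, with the mean of the ratios within pools 400, with the IL-5 index only 468 and with the IL-13 index only 447, where 652 were lower. Leaving out any 1 cell gave 246 to 297 higher and 322 to 388 lower, and a difference in the median number of genes detected of 92 to 206.5, which was 118 over all cells and 39.5 without the 3 Il9-low cells with fewest genes, an alternative chosen after seeing the data. That difference was 26 when a gene counted from 5 reads, 264 in unthinned cells, 198.5 with Il9-high at 10000 CPM or more, 200.5 in the IL-5 index and 267 in the IL-13 index. TMM factors gave 260 and 345, and DESeq2 size factors 303 and 310.

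The 24 genes named by size kept their sign in all 240 values under other settings and in all 528 on leaving out 1 cell, which the rule in part required. Of list genes past 2-fold, Tnip1 changed sign by mean log2 (-0.13), with Il9-high at 10000 CPM or more (-0.23), by the mean within pools (-0.13) and without replicate 7 of the IL-13 index (-0.23), the range on leaving out 1 cell being -0.23 to 1.60. Id2 changed sign by mean log2 (-0.21), in the IL-13 index (-1.70) and by the mean within pools (-0.058). Others by mean log2 were Il6 (0.13) and Rbpj (0.27). Those in 1 index only were Tnf (-0.10, IL-5), Calca (0.22, IL-13), Itgb7 (0.46, IL-5), Rrad (2.52, IL-5) and Zfp36l2 (1.44, IL-5). On leaving out 1 cell, Il5 ran from -0.10 to 1.52, Rrad from -7.32 to 1.97 and Zfp36l2 from -5.60 to 0.46. Zfp36l2 was at 0.22 without the 3 Il9-low cells. The cause was not tested. No paired analysis was possible because the labels pair no cells and no test was made. With 1 sample a set, intervals do not cover the spread between cells.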

Other observations

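Beyond the naming rule, and chosen after their values were seen, Ptpn1 and Psma2 had the highest shares of pairs in which the Il9-high cell was above, of 2486 genes. Ptpn1, a tyrosine phosphatase that acts on JAK kinases, was read in 9 of 9 Il9-high cells at 10.1 to 321 CPM (median 178) and in 2 of 13 Il9-low cells at up to 62.4 CPM. The Il9-high cell was above in 95.7% of pairs, and the log2 ratio was 3.99 (3.51 to 4.50, 452 reads against 39), with 3.51 in the IL-5 and 5.83 in the IL-13 index. Its ratio exceeded that of Fbxl21, and the rule left it out because in 1 pool neither set had more reads than the floor. In the IL-5 index transition cells, which the split of activated cells did not use, the ratio of Ptpn1 was -0.13. Psma2, a proteasome subunit, was at 1007 to 1901 CPM (median 1142) in Il9-high and 38.6 to 1105 CPM (median 683) in Il9-low cells, 97.4% of pairs, with a ratio of 0.88 and 0.22 in those transition cells. The sets of both genes overlapped.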
